A study of Homo sapiens with 36 samples.

Results

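The 10 genes described here encode death receptors, related receptors of the tumour necrosis factor (TNF) family and the pair of proteins that decide whether a bound death receptor starts apoptosis. They were FAS, TNFRSF10A, TNFRSF10B, TNFRSF10D, TNFRSF1A, TNFRSF1B, TNFRSF9, TNFRSF12A, CASP8 and CFLAR, out of 22260 genes on the array. They were taken through every probe set annotated to 1 of them and to no other gene, which gave 134 of 352859 probe sets. Death receptors are surface proteins with a death domain inside the cell. Once a ligand of the TNF family has bound, they gather the adaptor FADD, which recruits the initiator caspase encoded by CASP8, and the CASP8 relative encoded by CFLAR can block that step. Receptors of the family without a death domain signal through TRAF adaptors, often to NF-kB.

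The study treated 2 human cell lines, DU145 from a prostate carcinoma and CCRF-CEM from a T cell leukaemia, with camptothecin, a poison of topoisomerase I that breaks DNA during replication. Each line was used as SLFN11-knockout cells and as their SLFN11-proficient parent. SLFN11 is a factor that blocks replication under stress and is known for making cells sensitive to such drugs. The groups were SLFN11-knockout DU145, parent DU145, SLFN11-knockout CCRF-CEM and parent CCRF-CEM, each as control cells (treatment none) and after 6 h and 12 h of camptothecin at 250 nM, with 3 arrays in each of the 12 groups. All cells grew in RPMI1640 with 10% FBS. The protocol names DMSO beside camptothecin, and the labels give neither the harvest time of the controls nor whether a knockout line was 1 clone or a pool. Nothing says that the 3 arrays of a group came from separate cultures, so the p-values measure the spread between these arrays, which may be technical.

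Values are log2 signals, so a difference of 1 is a doubling. A gene was represented by its brightest probe set, ranked by the mean over all 36 arrays of both lines. The mean over all its probe sets is given beside it. The array medians lay between 4.78 and 4.86, and arrays of a group correlated at 0.979 to 0.988 across genes, each on its brightest probe set. The epithelial markers averaged 6.26 to 7.01 in CCRF-CEM arrays and 10.56 to 10.91 in DU145 arrays, while the T lineage markers averaged 10.45 to 10.90 in CCRF-CEM and 5.98 to 6.73 in DU145. SLFN11, the targeted gene, did not fall on its brightest probe set: control arrays read 8.72, 9.0 and 9.18 in knockout DU145 cells and 8.35, 8.69 and 8.63 in parent cells. Of its 11 probe sets, 3 were lower and 2 higher in untreated knockout DU145 cells, and 1 was lower in untreated knockout CCRF-CEM cells. The transcript signal therefore does not check the knockout labels, and knockout means the cells so labelled.

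Promoters of 2 members are shown because TNFRSF9 had the largest camptothecin response among the members and FAS is the best known death receptor. Each window runs from 250 bases before to 50 bases after 1 annotated start of the gene, 5′ to 3′ on the gene's strand, as RefSeq gives it for GRCh38.p14. Other starts of a gene were not searched. The annotated FAS gene begins at base 88964050, upstream of the window read. Capitals mark matches to the letters searched. TNFRSF9 is at chr1:7940790-7941089 on the minus strand and FAS at chr10:88990548-88990847 on the plus strand.
TNFRSF9: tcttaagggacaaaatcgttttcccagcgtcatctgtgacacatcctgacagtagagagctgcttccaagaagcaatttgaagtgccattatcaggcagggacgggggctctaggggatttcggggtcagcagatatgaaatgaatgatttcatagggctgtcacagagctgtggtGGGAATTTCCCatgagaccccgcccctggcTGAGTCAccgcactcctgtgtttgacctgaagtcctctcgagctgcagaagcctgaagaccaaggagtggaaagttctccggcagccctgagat
FAS: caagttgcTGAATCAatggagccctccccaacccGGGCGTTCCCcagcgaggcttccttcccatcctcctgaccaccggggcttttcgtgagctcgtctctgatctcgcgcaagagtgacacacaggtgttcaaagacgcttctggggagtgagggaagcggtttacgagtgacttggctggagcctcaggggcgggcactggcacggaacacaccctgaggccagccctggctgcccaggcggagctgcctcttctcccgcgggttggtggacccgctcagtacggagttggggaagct
Both windows held the AP-1 letters TGANTCA, at base -44 in TNFRSF9 and base -242 in FAS, counted from the start. These letters, on either strand, were present in 7.76% of 27305 RefSeq promoter windows. Both also held letters of an NF-kB site (GGGA and CC with 4 free bases between, on either strand), which 25.1% of the windows hold. In TNFRSF9 that was a pair of overlapping matches at -74 and -73, in FAS 1 match at -216. CASP8 had 1 NF-kB match at -77, and the CRE letters TGACGTNA (3.175% of windows) and the EGR letters GCGNGGGCG (9.28%) were in none of the 6 windows read, those of FAS, TNFRSF1A, TNFRSF1B, TNFRSF9, CASP8 and CFLAR. No window was found for TNFRSF10A, TNFRSF10B, TNFRSF10D and TNFRSF12A, so no letters were searched for them. A match describes letters and does not show that a factor binds there.

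Camptothecin raised few of these genes. TNFRSF9 rose in both parent lines, TNFRSF12A and, over the mean of its probe sets, TNFRSF10B rose in parent DU145 cells, and TNFRSF1A fell slightly in both parent lines once its probe sets were averaged. In knockout DU145 cells TNFRSF9 rose at 12 h and TNFRSF1B at both times, at 6 h not over the mean of its probe sets. On its brightest probe set FAS rose at 12 h in both knockout and parent DU145 cells and at 6 h in parent CCRF-CEM cells. Over the mean of its probe sets the FAS rise above control held only in knockout DU145 cells at 12 h, where the arrays overlapped the controls. In these bulk samples, fewer cells that express a gene and less RNA of it per cell cannot be told apart. The level of each member in each array is plotted by line, genotype and time.

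**Figure D1:**
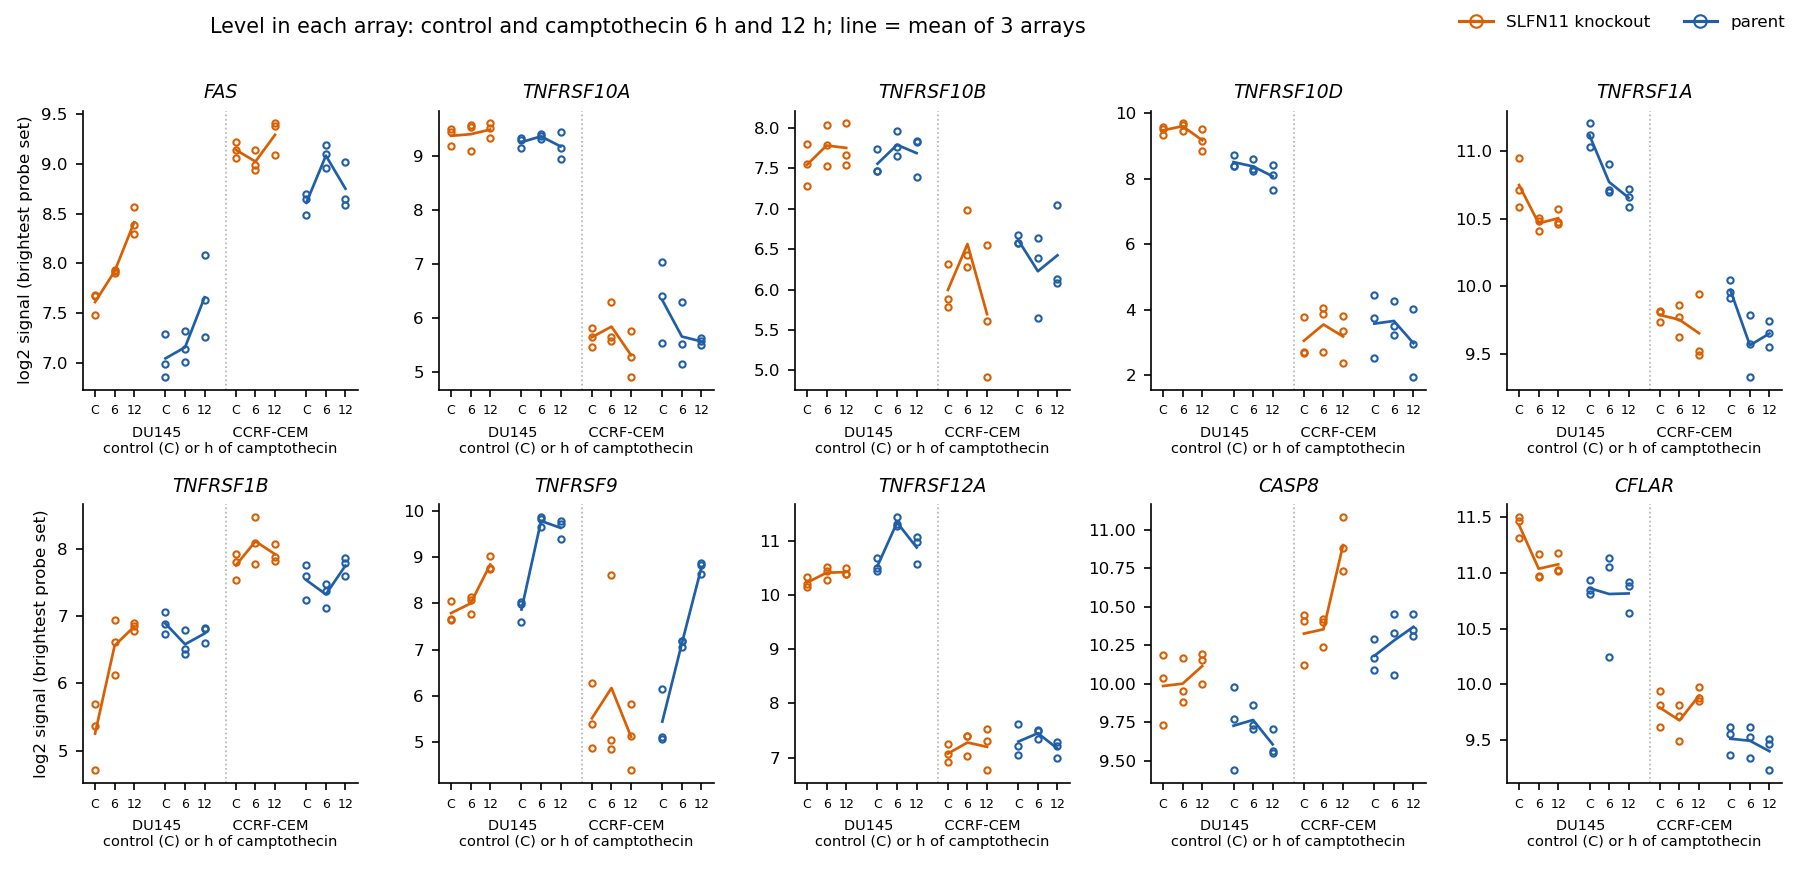
Log2 signal of the brightest probe set of each of the 10 genes in every array (open circles; lines join the means of 3 arrays), for control cells (C) and 6 h and 12 h of camptothecin, with SLFN11-knockout cells (orange) left of parent cells (blue) and DU145 left of CCRF-CEM. In parent DU145 cells all TNFRSF9 values after camptothecin are 9.39 or higher, against a highest control value of 8.02.

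On the brightest probe set, with limma and Benjamini-Hochberg adjustment over all genes and a threshold of 0.05, 1 of the 10 members rose in knockout DU145 cells at 6 h and 3 at 12 h, where 8.72% and 10% of all genes passed. In parent DU145 cells 2 members rose at 6 h, where 10.1% of all genes passed. At 12 h TNFRSF9 and FAS rose there and TNFRSF1A fell, against 7.69% of all genes. In CCRF-CEM the counts were 0 and 1 in knockout cells (6.44% and 8.21% of all genes) and 1 and 1 in parent cells (12.4% and 16.8%), all of them rises. The median member change at 12 h was 0.16 in knockout and -0.063 in parent DU145 cells, beside 0.040 and 0.037 over all genes.

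Between 6 h and 12 h of camptothecin 1 member rose in knockout DU145 cells (0.386% of all genes passed) and none passed in parent DU145 cells (0.454%), knockout CCRF-CEM cells (0.517%) or parent CCRF-CEM cells (5.78%). The genotype difference, the change in knockout cells minus the change in parent cells, asks whether the response depended on genotype. In DU145 it passed for 2 members at 6 h, 1 in each direction, and for 1 at 12 h, against 1.11% and 1.13% of all genes. In CCRF-CEM it passed for 0 members at 6 h and 1 at 12 h, against 2.23% and 7.91%. Without treatment 4 members differed between knockout and parent DU145 cells, 2 in each direction, and 0 between the CCRF-CEM pair, against 11.4% and 1.51% of all genes.

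Averaging all probe sets of a gene gave more calls. In DU145, 2 members passed in knockout cells at 6 h and 5 at 12 h (13.7% and 15.7% of all genes passed), and 4 passed in parent cells at each time (15.4% and 12.2%). In CCRF-CEM the counts were 1 and 0 in knockout cells (10% and 9.91%) and 2 and 3 in parent cells (16.2% and 20.5%). Between 6 h and 12 h, 1 member passed in each of knockout DU145 (1.46%), parent DU145 (1.13%), knockout CCRF-CEM (2.34%) and parent CCRF-CEM (4.86%) cells. The genotype difference passed for 3 members in DU145 at 6 h (2.25%), 0 at 12 h (1.22%), and 1 in CCRF-CEM at each time (4.05% and 8.73%). Without treatment the DU145 pair differed in 4 members (12.3%) and the CCRF-CEM pair in 0 (3.46%).

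Single probe sets, adjusted over all 352859, tell how widely a change ran along a gene. Of the 134 member probe sets, 2 and 10 rose in knockout DU145 cells at 6 h and 12 h (2.64% and 3.28% of all probe sets passed), and 20 and 12 rose in parent DU145 cells (3.6% and 2.57%). In CCRF-CEM none rose in knockout cells (1.73% and 1.27%), while 5 and 10 rose in parent cells (4.09% and 6.7%). Those that fell were 4 CFLAR probe sets in knockout DU145 cells and 1 in parent DU145 cells at 12 h, 1 each of CASP8 and CFLAR in knockout CCRF-CEM cells at 6 h, and 2 of TNFRSF1A in parent CCRF-CEM cells at 6 h. The genotype difference passed for 1 and 0 probe sets in DU145 (0.127% and 0.0252%) and for 1 and 7 in CCRF-CEM (0.232% and 1.27%), all lower in knockout cells and all of TNFRSF9. Without treatment 6 were higher and 2 lower in knockout than in parent DU145 cells (2.18%), and none passed in CCRF-CEM (0.405%).

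**Figure D2:**
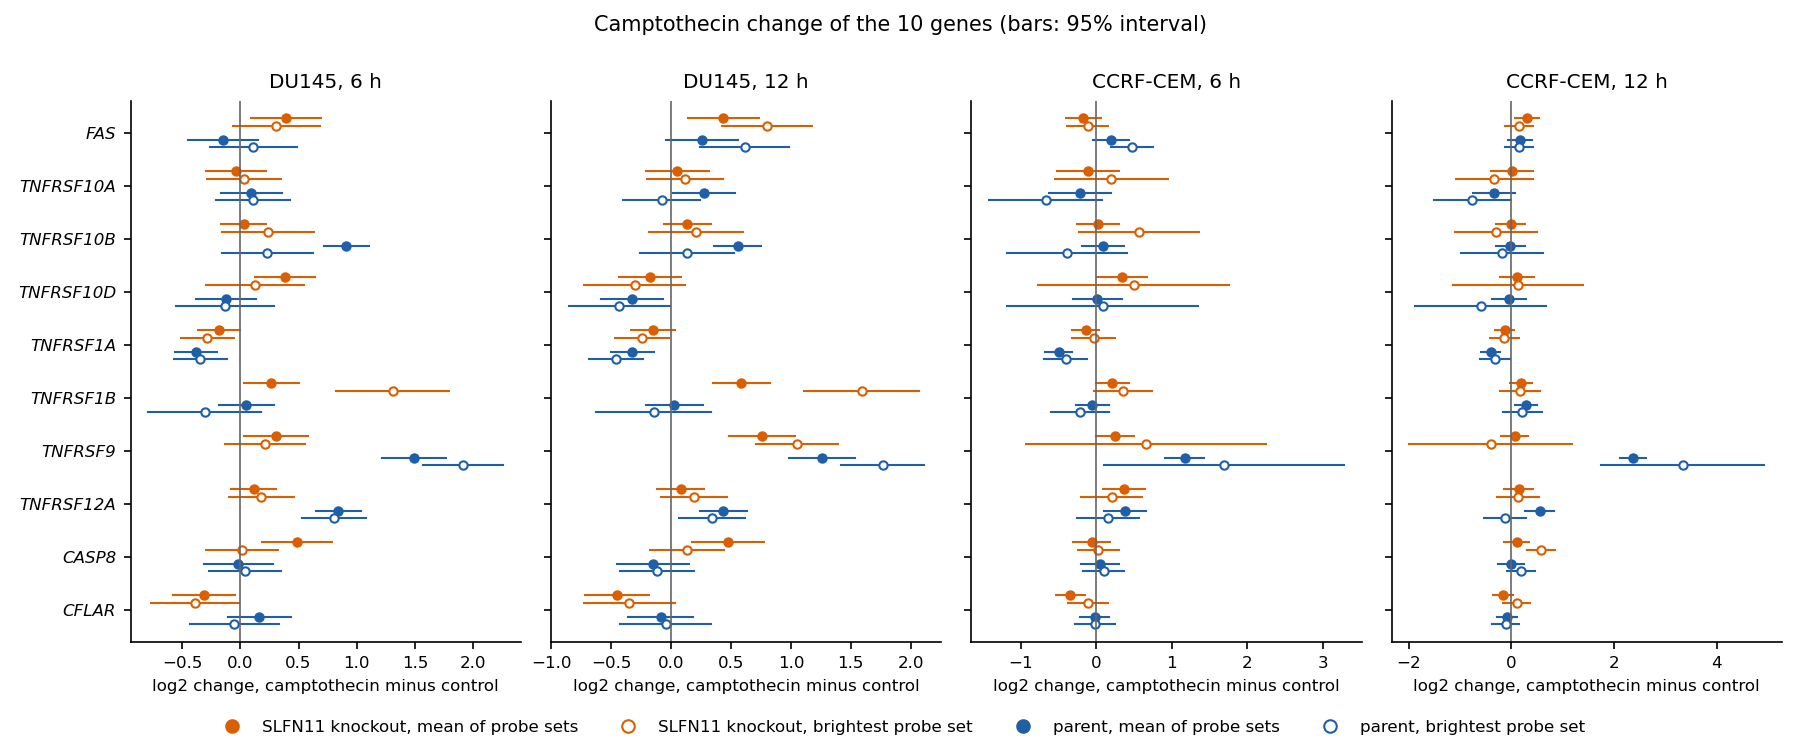
Log2 change with camptothecin (camptothecin minus control) of each gene at 6 h and 12 h in each line, with 95% intervals, for SLFN11-knockout (orange) and parent cells (blue). Filled points are means over all probe sets and open points the brightest probe set; TNFRSF10B in parent DU145 cells differs between them, at 0.91 and 0.23 at 6 h.

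FAS encodes the receptor of FAS ligand, the archetype of the death receptors, and is a known target of p53, which both lines carry in mutated form. In knockout DU145 cells it read 7.48, 7.67 and 7.69 in controls, 7.90, 7.93 and 7.93 at 6 h and 8.30, 8.56 and 8.38 at 12 h. The groups did not overlap, and the 12 h change was 0.80 ± 0.17 (SE, adjusted p = 0.00894 by limma, n = 3 arrays per group), the 6 h change 0.31 ± 0.17 (adjusted p = 0.347). In parent DU145 cells the values were 6.86, 6.99 and 7.29 in controls, 7.14, 7.32 and 7.01 at 6 h and 7.26, 8.09 and 7.63 at 12 h. There the 12 h arrays overlapped the controls, and the change of 0.61 ± 0.17 passed narrowly (adjusted p = 0.0449). It was lost in 15 of 18 fits that left out 1 array, with a change of 0.40 and the highest adjusted p, 0.181, without replicate 2 of the 12 h parent cells. A difference between the genotypes in this change was not shown, the genotype difference at 12 h being 0.19 with a 95% interval from -0.34 to 0.71.

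Untreated knockout DU145 cells held more FAS signal than parent cells, by 0.57 ± 0.17, without overlap (adjusted p = 0.0498, lost in 15 of 18 fits without 1 array, highest adjusted p 0.145). That difference was 0.19 ± 0.14 over the mean of probe sets (adjusted p = 0.468) and 0.21 with arrays shifted to equal housekeeping medians (adjusted p = 0.388), both short of the threshold. In CCRF-CEM, FAS read 9.22, 9.14 and 9.06 in untreated knockout cells and 8.48, 8.70 and 8.65 in untreated parent cells, a difference of 0.53 ± 0.13 that missed the threshold (adjusted p = 0.0558). That difference passed with the replicate number as a block (adjusted p = 0.0465) and with a variance trend (0.036). It also passed without replicate 2 of the 12 h parent cells (0.0292) or replicate 3 of the 12 h knockout cells (0.0457), but not over the mean of probe sets. Parent CCRF-CEM cells read 8.96, 9.18 and 9.10 at 6 h, above all their controls, a rise of 0.47 ± 0.13 (adjusted p = 0.0237), and 8.65, 9.02 and 8.58 at 12 h, which overlapped the controls. That rise missed the threshold without replicate 1 of the controls (adjusted p = 0.103), or without replicate 2 (0.0892) or replicate 3 (0.0705) of the 6 h cells. In knockout CCRF-CEM cells the change was -0.12 ± 0.13 at 6 h and 0.15 ± 0.13 at 12 h, neither past the test. Over the 14 FAS probe sets the pattern was weaker. In knockout DU145 cells at 12 h the mean of probe sets rose by 0.44 ± 0.14 (adjusted p = 0.0446), and 2 of 14 probe sets rose. By that mean the 12 h arrays, 5.82, 5.46 and 6.02, overlapped the controls, 5.14, 5.38 and 5.48. The mean changed by 0.26 in parent DU145 cells at 12 h and by 0.19 in parent CCRF-CEM cells at 6 h, neither past the test, and in knockout CCRF-CEM cells it was 0.49 ± 0.11 higher at 12 h than at 6 h (adjusted p = 0.0297).

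TNFRSF10A and TNFRSF10B encode the death receptors that bind TRAIL, and TNFRSF10B is a well known stress-induced gene. TNFRSF10A did not pass the test in any camptothecin comparison. Its highest and lowest group means were 9.49 and 9.18 in DU145, where single arrays ran from 8.94 to 9.61. In CCRF-CEM it was lower, with array values from 4.91 to 7.04. In parent CCRF-CEM cells it read 7.04, 6.41 and 5.53 in controls, 6.30, 5.52 and 5.15 at 6 h and 5.57, 5.64 and 5.49 at 12 h. The changes there, -0.67 ± 0.35 and -0.76 ± 0.35, missed the threshold (adjusted p = 0.261 and 0.175), and passed it without control replicate 3 (-1.07 and -1.16, adjusted p = 0.0483 and 0.0298).

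TNFRSF10B rose in parent DU145 cells on most of its probe sets but not on the one brightest over the arrays of both lines. That probe set was not the brightest in DU145, reading 7.56 in untreated parent cells. Those brighter there, at 8.74, 8.47, 8.29 and 8.17 in parent controls, read 9.57, 8.99, 8.91 and 9.21 at 6 h. The mean over the 14 TNFRSF10B probe sets was 7.04, 7.12 and 7.01 in knockout controls, 7.0, 7.18 and 7.07 at 6 h and 7.35, 7.20 and 7.03 at 12 h. In parent cells it was 6.66, 6.7 and 6.78 in controls, 7.59, 7.62 and 7.65 at 6 h and 7.25, 7.16 and 7.39 at 12 h. The camptothecin arrays of knockout cells overlapped their controls, while all those of parent cells lay above theirs. The knockout change was 0.03 at 6 h and 0.13 at 12 h, neither past the test, against a parent rise of 0.91 ± 0.09 at 6 h (adjusted p = 1.65e-06, 1.88-fold) and 0.55 ± 0.09 at 12 h (adjusted p = 0.000463).

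The TNFRSF10B genotype difference was -0.88 ± 0.13 at 6 h (adjusted p = 0.000798) and -0.42 ± 0.13 at 12 h (adjusted p = 0.127). Untreated knockout cells stood 0.34 ± 0.09 above untreated parent cells (adjusted p = 0.0204), so the 2 genotypes began from different levels. Of the 14 probe sets, none passed in knockout cells. In parent cells all were above 0 at 6 h and 8 passed, with a median change of 0.80 and a range from 0.23 to 1.80, and 5 passed at 12 h. The brightest probe set changed by 0.24 ± 0.18 in knockout cells and by 0.23 ± 0.18 in parent cells at 6 h (adjusted p = 0.519), the smallest of the 14 in parent cells. No value here shows which transcripts that probe set reads. In CCRF-CEM the mean of probe sets stayed between 3.28 and 4.04 in all 18 arrays, and no comparison with camptothecin passed.

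**Figure D3:**
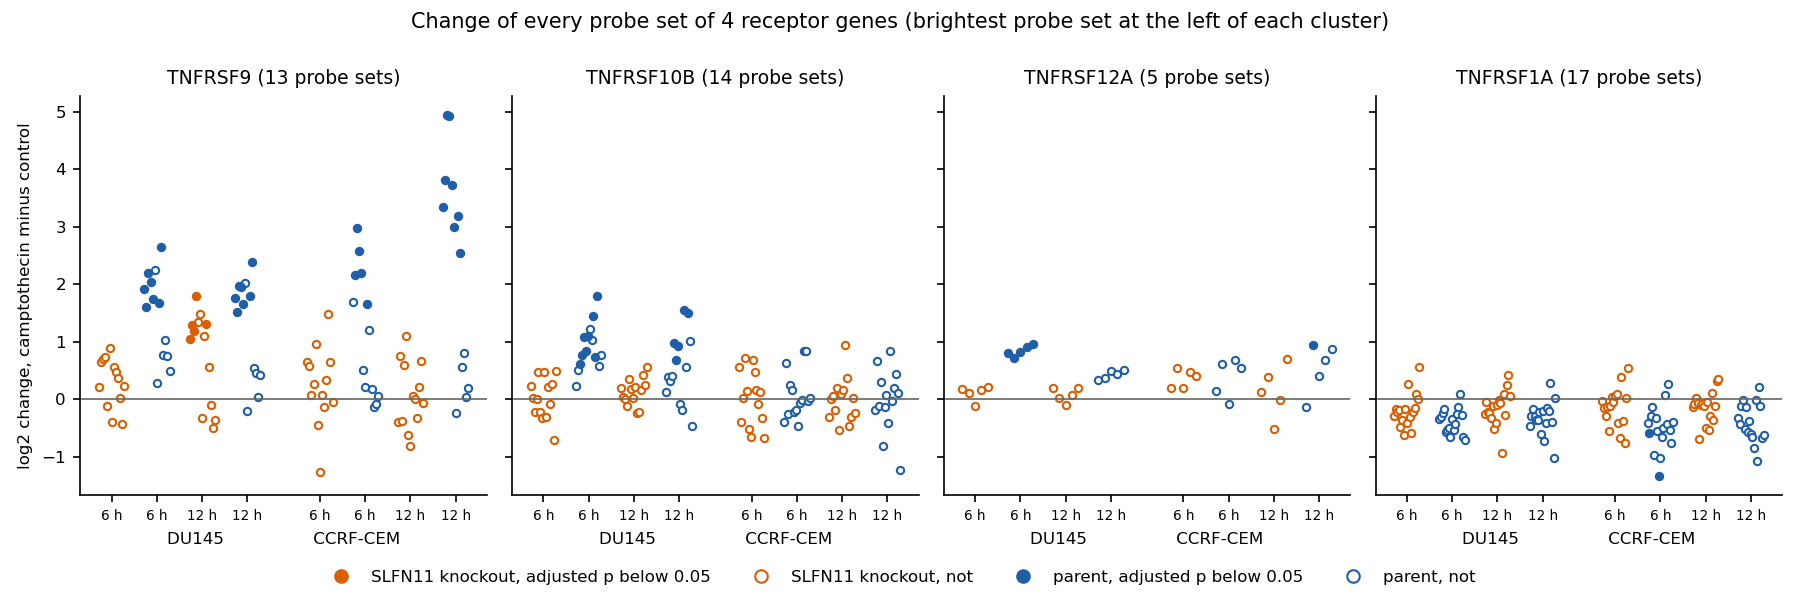
Log2 change with camptothecin of every probe set of TNFRSF9, TNFRSF10B, TNFRSF12A and TNFRSF1A at 6 h and 12 h, in SLFN11-knockout (orange) and parent (blue) cells of DU145 and CCRF-CEM; each point is 1 probe set and filled points passed an adjusted p of 0.05 over all probe sets. Filled TNFRSF10B points occur in parent DU145 cells only, 8 at 6 h and 5 at 12 h.

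TNFRSF10D encodes a TRAIL receptor with a shortened death domain, known as a decoy. Untreated knockout DU145 cells read 9.53, 9.34 and 9.56 and untreated parent cells 8.73, 8.40 and 8.39. The 2 sets did not overlap, and the difference was 0.97 ± 0.20 (adjusted p = 0.00648), or 0.72 ± 0.12 over the mean of 8 probe sets (adjusted p = 0.000765). All 8 probe sets were higher in knockout cells, although 1 passed by itself. Fitted with all 36 arrays the same difference missed the threshold (adjusted p = 0.173). Camptothecin changed the brightest probe set in no comparison past the test, and in knockout cells the mean of probe sets was 0.38 ± 0.12 above control at 6 h (adjusted p = 0.0462) and 0.56 ± 0.12 lower at 12 h than at 6 h (adjusted p = 0.0268). CCRF-CEM group means were 2.97 to 3.65, near the lower quartile of all values on the arrays, 3.00, so changes there could not be measured well.

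TNFRSF1A encodes the TNF receptor with a death domain. In knockout DU145 cells it read 10.95, 10.59 and 10.71 in controls, 10.49, 10.51 and 10.41 at 6 h and 10.46, 10.58 and 10.48 at 12 h, and the changes of -0.28 and -0.25 missed the threshold (adjusted p = 0.124 and 0.18). In parent DU145 cells it read 11.03, 11.12 and 11.21 in controls, 10.90, 10.71 and 10.70 at 6 h and 10.72, 10.66 and 10.59 at 12 h. In CCRF-CEM parent cells it read 9.91, 10.05 and 9.96 in controls, 9.57, 9.33 and 9.79 at 6 h and 9.75, 9.56 and 9.66 at 12 h. The camptothecin arrays lay below the controls without overlap in knockout DU145 cells and in both parent lines. In parent DU145 cells the fall was 0.35 ± 0.11 at 6 h, which narrowly missed the threshold (adjusted p = 0.0526). At 12 h it was 0.46 ± 0.11, which passed the threshold (adjusted p = 0.0145). In CCRF-CEM the changes of this probe set, -0.41 ± 0.13 and -0.32 ± 0.13, missed it (adjusted p = 0.0626 and 0.13). The 12 h call in DU145 was lost without control replicate 3 (adjusted p = 0.0591) or without replicate 3 of the 12 h cells (0.0543). The 6 h call in DU145 was gained without replicate 1 of the 6 h parent cells (adjusted p = 0.0469) or without replicate 1 (0.0293) or 2 (0.0464) of the knockout controls.

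The mean over the 17 TNFRSF1A probe sets changed by -0.19 and -0.15 at 6 h and 12 h in knockout DU145 cells and by -0.14 and -0.13 in knockout CCRF-CEM cells, none past the test. The same mean fell in parent cells of both lines, by 0.38 ± 0.09 and 0.32 ± 0.09 at 6 h and 12 h in DU145 (adjusted p = 0.00454 and 0.0172) and by 0.50 ± 0.09 and 0.40 ± 0.09 in CCRF-CEM (adjusted p = 0.000449 and 0.00232). The genotype difference itself passed in neither line, at 0.19 and 0.17 in DU145 and 0.36 and 0.27 in CCRF-CEM, so the fall is not shown to depend on genotype. Untreated knockout DU145 cells were 0.37 ± 0.11 lower than parent cells (adjusted p = 0.0374), a call lost in 4 of 18 fits without 1 array (highest adjusted p 0.144, without knockout control replicate 2) with cyclic loess and with the replicate number as a block (adjusted p = 0.0509 each), and with the mean of probe sets (-0.23 ± 0.09, adjusted p = 0.0988).

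TNFRSF1B encodes the other TNF receptor, which lacks a death domain and is abundant on lymphoid cells. Untreated knockout DU145 cells read 5.36, 5.70 and 4.71, and untreated parent cells 7.05, 6.88 and 6.73. The knockout level was lower by 1.63 ± 0.23, to 0.322 of the parent signal, with no overlap (adjusted p = 0.000505). With camptothecin the knockout cells read 6.62, 6.95 and 6.12 at 6 h and 6.78, 6.90 and 6.85 at 12 h, and the parent cells 6.51, 6.44 and 6.79 at 6 h and 6.80, 6.60 and 6.83 at 12 h. After treatment the arrays of the 2 genotypes thus occupied the same range. The rise in knockout cells was 1.31 ± 0.23 at 6 h (adjusted p = 0.00255) and 1.59 ± 0.23 at 12 h (adjusted p = 0.000544), against -0.31 and -0.15 in parent cells.

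The TNFRSF1B genotype difference was 1.62 ± 0.32 at 6 h and 1.74 ± 0.32 at 12 h (adjusted p = 0.0237 and 0.0238), each lost in 6 of 18 fits without 1 array (highest adjusted p 0.0635 and 0.0612). Each of these comparisons rests on the same 3 knockout control arrays. The mean over 10 probe sets was lower by 0.49 ± 0.11 in untreated knockout cells (adjusted p = 0.00713). Under camptothecin that mean rose by 0.59 ± 0.11 at 12 h (adjusted p = 0.00133), and its change of 0.26 ± 0.11 at 6 h missed the threshold (adjusted p = 0.14). Of the 10 probe sets, 2 rose at 6 h and 2 at 12 h in knockout cells, where 6 and 9 had changes above 0, and 1 was lower in untreated knockout cells, where 7 had differences below 0. The genotype differences of that mean, 0.215 and 0.56, missed the threshold (adjusted p = 0.603 and 0.0916). In CCRF-CEM the array values ran from 7.12 to 8.48 and no comparison passed. The genotype difference at 12 h was 1.79 ± 0.42 lower in CCRF-CEM than in DU145 (adjusted p = 0.0108). That comparison of the lines passed for 1 of the 10 members, against 4.78% of all genes, and at 6 h for 0, against 0.53%.

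TNFRSF9 encodes 4-1BB (CD137), a costimulatory receptor best known from activated T cells, which signals through TRAF adaptors. Knockout DU145 cells read 7.65, 7.67 and 8.05 in controls, 7.78, 8.07 and 8.15 at 6 h and 9.02, 8.76 and 8.73 at 12 h. In parent DU145 cells it read 7.60, 8.02 and 7.98 in controls, 9.87, 9.65 and 9.82 at 6 h and 9.71, 9.79 and 9.39 at 12 h. Knockout cells overlapped their controls at 6 h and lay above them at 12 h, and parent cells lay above theirs at both times. In knockout cells the change was 0.21 ± 0.16 at 6 h (adjusted p = 0.524) and the rise 1.05 ± 0.16 at 12 h (adjusted p = 0.00087, 2.07-fold, and 0.267 with all 36 arrays in 1 fit). The rise in parent cells was 1.92 ± 0.16 at 6 h (adjusted p = 3.58e-06, 3.77-fold) and 1.76 ± 0.16 at 12 h (adjusted p = 1.16e-05).

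The TNFRSF9 genotype difference in DU145 was -1.71 ± 0.23 at 6 h (adjusted p = 0.00122) and -0.71 ± 0.23 at 12 h (adjusted p = 0.14). None of the 18 fits without 1 array lost the 6 h call (highest adjusted p 0.00571), while the fit of all 36 arrays, whose spread is shared with the CCRF-CEM arrays, did (adjusted p = 0.314). The further rise between 6 h and 12 h in knockout cells, 0.84 ± 0.16, passed narrowly (adjusted p = 0.0401) and was lost in 14 of 18 fits without 1 array (highest adjusted p 0.157, without replicate 1 of the 6 h knockout cells). Over the mean of probe sets it was 0.46 ± 0.13 and missed the threshold (adjusted p = 0.091). Of 13 probe sets, 0 rose in knockout cells at 6 h and 5 at 12 h, and 7 rose in parent cells at each time. All 13 changed less in knockout than in parent cells at 6 h. The mean over the 13 gave the same calls at 6 h, with a genotype difference of -1.19 ± 0.19 (adjusted p = 0.00124).

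In CCRF-CEM, the T cell line, TNFRSF9 was low without drug. Knockout cells read 5.39, 4.86 and 6.29 in controls, 4.85, 8.61 and 5.04 at 6 h and 5.13, 4.38 and 5.83 at 12 h. Replicate 2 of the 6 h knockout cells stood apart on this probe set, and on 1 further probe set of the gene (6.05, against 2.09 and 2.61 in the other replicates). Parent cells read 6.15, 5.07 and 5.11 in controls, 7.19, 7.05 and 7.18 at 6 h and 8.84, 8.63 and 8.87 at 12 h, with no overlap between the 3 groups. The 12 h rise was 3.34 ± 0.74 (adjusted p = 0.00556, 10.1-fold), and the 6 h change of 1.70 ± 0.74 missed the threshold (adjusted p = 0.172). Without replicate 2 of the 6 h knockout cells the rise of parent cells at 6 h passed (1.70, adjusted p = 0.0105), the 12 h rise kept its size (adjusted p = 5.44e-05), and so did the genotype difference at 12 h (-3.73, adjusted p = 0.00134).

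With all arrays the CCRF-CEM genotype difference of TNFRSF9 at 12 h was -3.73 ± 1.05 (adjusted p = 0.0422), lost in 12 of 18 fits without 1 array (highest adjusted p 0.0956, without replicate 3 of the knockout controls). The mean over the 13 probe sets varied less. It was 3.31, 3.06 and 3.24 in knockout controls, 3.40, 3.75 and 3.20 at 6 h and 3.13, 3.41 and 3.25 at 12 h, against 3.19, 3.25 and 3.25 in parent controls, 4.30, 4.34 and 4.56 at 6 h and 5.56, 5.65 and 5.59 at 12 h. Knockout arrays stayed between 3.06 and 3.75, while parent arrays were higher at 6 h than in controls and higher again at 12 h. The genotype difference of this mean was -0.92 ± 0.17 at 6 h (adjusted p = 0.00456) and -2.31 ± 0.17 at 12 h (adjusted p = 1.81e-07). Among single probe sets 5 rose in parent cells at 6 h and 8 at 12 h, where the highest change was 4.95, and 0 in knockout cells. Between 6 h and 12 h the mean rose by a further 1.20 ± 0.12 in parent cells (adjusted p = 3.35e-05).

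Between the lines the genotype difference of TNFRSF9 at 12 h differed by -3.02 ± 1.11 on the brightest probe set (adjusted p = 0.131, and 0.00353 without replicate 2 of the 6 h knockout CCRF-CEM cells) and by -1.81 ± 0.26 over the mean of probe sets (adjusted p = 4.41e-05). That is, knockout cells fell short of their parent by more in CCRF-CEM than in DU145 at 12 h. Of the members, 1 passed that comparison of lines with the mean of probe sets (5.6% of all genes) and 0 at 6 h (1.37%). At 6 h the same difference was 0.27 ± 0.26 (adjusted p = 0.741).

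TNFRSF12A encodes the receptor of TWEAK, a small receptor without a death domain that is common in epithelial and injured tissue. It read in knockout DU145 cells 10.14, 10.34 and 10.20 in controls, 10.44, 10.27 and 10.51 at 6 h and 10.38, 10.49 and 10.38 at 12 h. In parent DU145 cells it read 10.43, 10.67 and 10.49 in controls, 11.26, 11.30 and 11.44 at 6 h and 11.07, 10.98 and 10.57 at 12 h. The parent arrays were highest at 6 h, by 0.80 ± 0.13 over control (adjusted p = 0.000997), and all 5 probe sets passed. At 12 h the change was 0.34 ± 0.13 (adjusted p = 0.135), and without replicate 3 of the 12 h cells 0.49 (adjusted p = 0.0237).

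The mean over the 5 TNFRSF12A probe sets changed by 0.11 and 0.08 in knockout cells, neither past the test, and gave a parent rise of 0.84 ± 0.09 at 6 h (adjusted p = 3.71e-06) and 0.44 ± 0.09 at 12 h (adjusted p = 0.00353), with a fall of 0.41 ± 0.09 between them (adjusted p = 0.0371). The genotype difference at 6 h was -0.73 ± 0.13 by this mean (adjusted p = 0.00457) and -0.62 ± 0.18 on the brightest probe set (adjusted p = 0.129). In parent CCRF-CEM cells at 12 h the mean over the 5 probe sets rose by 0.56 ± 0.13 (adjusted p = 0.00524). There 4 of the 5 had changes above 0, and 1 of them passed by itself. The brightest probe set was the only one below 0, and its change of -0.13 ± 0.19 missed the threshold (adjusted p = 0.749). Across the 18 DU145 arrays TNFRSF9 and TNFRSF12A had a Pearson correlation of 0.82, a description over arrays that share the same groups.

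CASP8, the initiator caspase of death receptors, changed little. It read 10.73, 10.88 and 11.09 in knockout CCRF-CEM cells after 12 h and 10.12, 10.41 and 10.44 in their controls, a rise of 0.57 ± 0.13 without overlap (adjusted p = 0.0127). That call was lost without control replicate 1 (adjusted p = 0.0653), without replicate 3 of the 12 h cells (0.0599), and with the mean over 16 probe sets, 0.10 ± 0.12 (adjusted p = 0.679). In knockout DU145 cells the mean of probe sets rose by 0.49 ± 0.14 at 6 h and 0.47 ± 0.14 at 12 h (adjusted p = 0.0282 and 0.0287), while the brightest probe set changed by 0.02 and 0.13. The largest 6 h rises were on dim probe sets that averaged 3.03, 2.66 and 2.91 in controls, near the lower quartile of all values, 3.00. Brighter ones at 9.69, 8.27, 7.93 and 7.77 in controls read 9.55, 8.22, 7.71 and 7.60 at 6 h. Others of bright or middle signal went up, from 9.98 to 10.00, 7.09 to 7.83, 6.36 to 7.52, 6.13 to 6.64 and 6.03 to 6.21. In parent cells no CASP8 comparison with camptothecin passed in either line. The CASP8 genotype difference passed at no time in either line, on the brightest probe set or over the mean. The CASP8 rises in knockout cells are thus not shown to depend on genotype.

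CFLAR encodes FLIP, the inhibitor of CASP8 recruitment. Untreated knockout DU145 cells read 11.31, 11.46 and 11.50 and parent cells 10.93, 10.81 and 10.85, a difference of 0.56 ± 0.18 without overlap that narrowly missed the threshold (adjusted p = 0.0551). It passed over the mean of 26 probe sets (0.54 ± 0.13, adjusted p = 0.00967), where 5 probe sets were higher, and without replicate 1 (adjusted p = 0.00507) or 2 (0.0436) of the 6 h parent cells. With camptothecin knockout cells read 10.96, 10.97 and 11.17 at 6 h and 11.03, 11.02 and 11.18 at 12 h, below all their controls. The 6 h change was -0.39 ± 0.18 (adjusted p = 0.221, and 0.0371 without replicate 1 of the 6 h parent cells). The 12 h change was -0.35 ± 0.18 on the brightest probe set (adjusted p = 0.267) and -0.45 ± 0.13 over all (adjusted p = 0.0208), with 4 of 26 probe sets past the test. In knockout CCRF-CEM cells the mean of probe sets fell by 0.34 ± 0.09 at 6 h (adjusted p = 0.0198). The genotype difference passed at no time in either line, so these falls are not shown to differ from parent cells.

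The lines themselves differed in every member before treatment. In parent cells FAS was 1.56 ± 0.15 higher in CCRF-CEM than in DU145, TNFRSF1B 0.65 ± 0.21 and CASP8 0.45 ± 0.13 higher. The other 7 were lower in CCRF-CEM. TNFRSF10B was lower by 0.95 ± 0.30 on its brightest probe set and by 2.95 ± 0.11 over the mean of its probe sets (adjusted p = 2.19e-20). TNFRSF10D was lower by 4.94 ± 0.46 and 3.51 ± 0.14 on these 2 measures, sizes that are not well measured, as its untreated parent CCRF-CEM arrays read 4.44, 2.52 and 3.75, at the low end of all signals. Over the mean of probe sets all 10 members kept their direction and passed, from 4.80 ± 0.11 lower for TNFRSF12A to 1.27 ± 0.13 higher for FAS. On the brightest probe set the adjusted p ran from 1.2e-15 for TNFRSF12A to 0.0146 for TNFRSF1B. On the brightest probe set 37.1% of all genes passed this comparison and over the mean of probe sets 46.4%. The CASP8 call was lost in 1 of 36 fits without 1 array, the TNFRSF10B call in 1 and the TNFRSF1B call in 2, with highest adjusted p of 0.0912, 0.0558 and 0.0828. CASP8 turned to -0.065 when arrays were shifted to equal housekeeping medians. A signal depends on its probes, so these levels are compared between lines and not between genes.

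The partners of these receptors were read from lists of 8 ligands, 17 other receptors of the family, 12 adaptors and kinases, 6 genes of caspases and BID, and 5 inhibitors, on the brightest probe set. The share of all genes that passed at 6 h and 12 h was 8.72% and 10% in knockout DU145 cells, 10.1% and 7.69% in parent DU145 cells, 6.44% and 8.21% in knockout CCRF-CEM cells, and 12.4% and 16.8% in parent CCRF-CEM cells. Of the 5 inhibitors, BIRC3 fell at both times and CYLD rose at 12 h in knockout DU145 cells, against 3 of 5 that rose in parent DU145 cells at each time. In CCRF-CEM 1 of 5 fell in knockout cells at each time and 4 of 5 rose in parent cells at each time. The list medians at 6 h were -0.28 in knockout and 0.43 in parent DU145 cells, beside 0.036 and 0.038 over all genes, and 0.22 and 0.89 in knockout and parent CCRF-CEM cells, beside 0.035 and -0.016.

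TNFAIP3, a ubiquitin editing enzyme that restrains NF-kB and is itself a known NF-kB target, rose by 1.97 ± 0.09 in parent DU145 cells at 6 h (adjusted p = 2.1e-08) and by 0.89 ± 0.09 in parent CCRF-CEM cells (adjusted p = 1.14e-05). BIRC3, which ubiquitinates RIPK1 at the TNF receptor, fell by 0.67 ± 0.13 in knockout DU145 cells (adjusted p = 0.00422) and rose by 1.23 ± 0.13 in their parent cells (adjusted p = 2.21e-05). In parent CCRF-CEM cells BIRC3 rose by 3.13 ± 0.22 (adjusted p = 6.06e-07). The genotype difference at 6 h was -2.03 ± 0.13 for TNFAIP3 and -1.91 ± 0.18 for BIRC3 in DU145, and -1.29 ± 0.12 and -2.49 ± 0.32 in CCRF-CEM, each past the test. Untreated knockout DU145 cells already held more of BIRC3, by 1.53 ± 0.13, of TNFAIP3, by 0.82 ± 0.09, and of BIRC2, by 0.64 ± 0.11, than parent cells, and untreated knockout CCRF-CEM cells more BIRC3, by 1.00 ± 0.22, so the start levels differed as well. CYLD, a deubiquitinase of the same complexes, rose by 1.19 ± 0.12 in parent CCRF-CEM cells at 6 h.

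**Figure D4:**
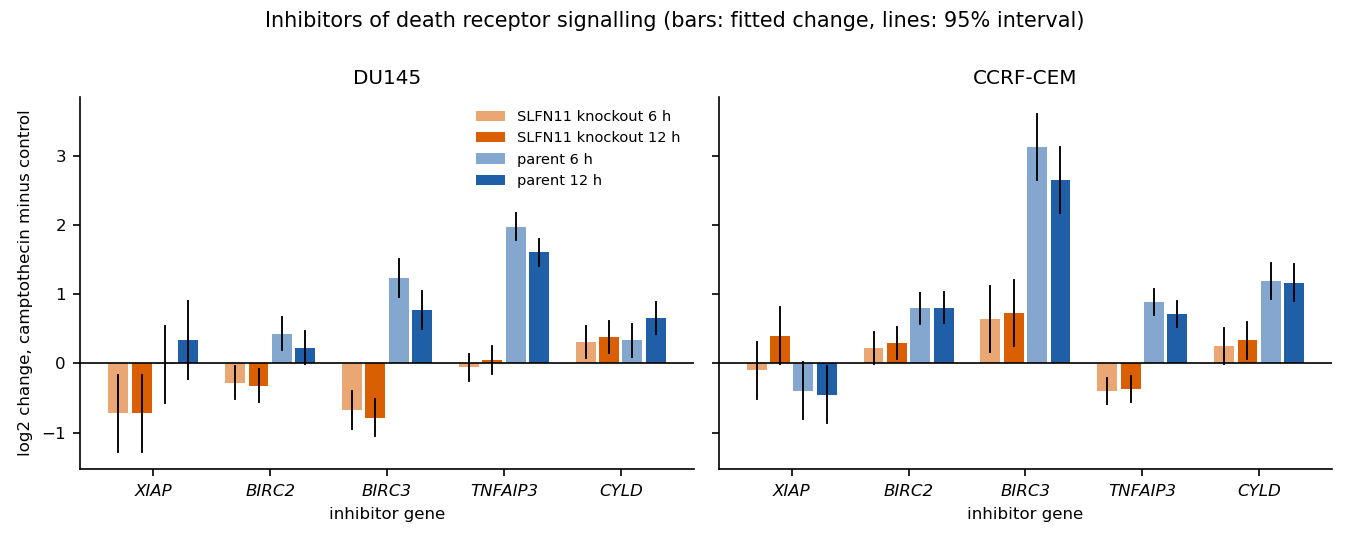
Log2 change with camptothecin (camptothecin minus control) of 5 inhibitors of death receptor signalling at 6 h (pale) and 12 h (dark) in SLFN11-knockout (orange) and parent (blue) cells, with 95% intervals. TNFAIP3 and BIRC3 stand above 0 in both parent lines, BIRC3 reaching 3.13 in CCRF-CEM at 6 h.

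Of 16 other receptors measured, RELT, which lacks a death domain, rose by 0.86 ± 0.22 in knockout DU145 cells at 12 h, by 1.81 ± 0.22 and 1.07 ± 0.22 in parent DU145 cells at 6 h and 12 h and by 0.82 ± 0.25 in parent CCRF-CEM cells at 12 h, all past the test. CD27, a costimulatory receptor of T cells, fell by 1.25 ± 0.13 and 0.92 ± 0.13 in parent CCRF-CEM cells, and its genotype difference was 1.22 ± 0.18 at 6 h and 1.03 ± 0.18 at 12 h. Untreated knockout CCRF-CEM cells already had less CD27, by 0.56 ± 0.13. The counts for this list of 16 measured were 0 and 3 in knockout DU145 cells (8.72% and 10% of all genes), 1 and 1 in parent DU145 cells (10.1% and 7.69%), 0 and 2 in knockout CCRF-CEM cells (6.44% and 8.21%), and 1 and 3 in parent CCRF-CEM cells (12.4% and 16.8%). Of 7 ligands measured, TNFSF9, the ligand of TNFRSF9, rose by 0.54 ± 0.15 in knockout DU145 cells at 12 h and by 0.52 ± 0.15 in parent DU145 cells at 6 h. TNF rose by 0.88 ± 0.23 in parent CCRF-CEM cells at 12 h, where its genotype difference was -1.12 ± 0.32 (adjusted p = 0.0457), and TNFSF10, which encodes TRAIL, rose by 0.46 ± 0.12 in knockout CCRF-CEM cells at 12 h.

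Among the 12 adaptors and kinases, 1 passed in knockout DU145 cells at each time (TRADD at 6 h, by 0.34 ± 0.10, and MLKL at 12 h, by 0.49 ± 0.14) and 0 and 2 in parent DU145 cells, where RIPK1 rose by 0.65 ± 0.18 and TRADD fell by 0.37 ± 0.10 at 12 h. The shares of all genes that passed were 8.72% and 10% in the knockout and 10.1% and 7.69% in the parent cells. In CCRF-CEM 0 and 2 of the 12 passed in knockout cells (6.44% and 8.21% of all genes) and 2 and 4 in parent cells (12.4% and 16.8%). In parent CCRF-CEM cells at 12 h TRAF6 and TRAF4 rose, by 0.82 ± 0.13 and 0.38 ± 0.11, and TRAF5 and MLKL fell, by 0.69 ± 0.12 and 0.57 ± 0.14. Of the 4 genes measured among caspases and BID, CASP6 and BID fell in parent CCRF-CEM cells at 12 h, by 0.82 ± 0.27 and 0.66 ± 0.15, and CASP10, a relative of CASP8, fell by 0.74 ± 0.20 in knockout CCRF-CEM cells at 6 h.

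The genes most like each member over the 36 arrays, after the mean of its line was taken off, are given as a description, since the arrays share groups. For TNFRSF9 they were TRIB3 (Pearson r = 0.83), PLK3 (0.83) and JUNB (0.83), for FAS DTX3L (0.82), FAM111A (0.80) and RNF14 (0.80), and for TNFRSF12A ADNP2, POLR1C and RPS9 (0.83 each). For TNFRSF1B they were ATP6V1F (0.86), MLLT11 (0.81) and PNKD (0.78). The closest genes of the other members had lower values, from 0.65 for TNFRSF10A with CDC26 to 0.79 for CFLAR with CDK19.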

How the data were processed

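Per the labels' protocols, RNA was made into fragmented sense-strand cDNA and labelled for Affymetrix arrays. Versions and parameters of RMA and Partek, which the submitters' processing notes name, are not given in the sources used here. Signals in the authors' deposited table are on the log2 scale, per probe set, for 36 arrays. RMA commonly gives all arrays 1 distribution, which would hide a global shift, and the array medians here lay between 4.78 and 4.86. Probe sets were named from the platform annotation: 259224 had 1 gene symbol, 13116 several (not used) and 80519 none. A gene's brightest probe set, by its mean over all arrays, stood for it. limma 3.58.1 (R 4.3.3; lmFit and eBayes) was fitted to all 22260 genes, with the 18 arrays and 6 groups of a line together and 36 arrays where lines were compared, and adjusted p below 0.05 (Benjamini-Hochberg) was the threshold. The code was tested on simulated data. Alternatives were a replicate block, 36 arrays in 1 fit, a variance trend, array weights, a filter on low values, a housekeeping shift, cyclic loess, the mean of probe sets, a stricter threshold and leaving out each array. The text names all 10 members, of each pathway list and comparison at most 3 genes past the test in a direction, by size, SLFN11, and the 3 genes most like a member. The members and lists were chosen with earlier results of these data known. The number of arrays limits the precision.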

Additional observations from a re-analysis of the deposited data

Results flagged for a closer look

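TNFRSF1B was singled out because its genotype difference at 12 h of camptothecin (knockout change minus parent change) differed between the lines by a test of that difference: it was -1.79 ± 0.42 in CCRF-CEM minus DU145 on the log2 scale (limma, adjusted p = 0.0108). The genotype difference was -0.051 in CCRF-CEM and 1.74 in DU145. With the mean over its 10 probe sets the difference between lines was -0.65 and missed the threshold (adjusted p = 0.068). It passed in all 36 fits that left out 1 array, with adjusted p from 0.0037 to 0.0246.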

How the results depend on the processing

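Of 210 results of members (10 genes in 21 comparisons), 32 passed the test, and the numbers that kept direction and call were 210 with the filter on low values, 207 with array weights, 206 with the replicate block, 204 each with the variance trend and cyclic loess, 201 with the housekeeping shift, 197 at an adjusted p below 0.01 and 177 with the mean of probe sets. With all 36 arrays in 1 fit 172 of 180 did. With the mean of probe sets 3 results changed sign: the TNFRSF10B genotype difference in DU145 at 6 h (-0.88) and untreated difference (0.34), and TNFRSF12A in parent CCRF-CEM cells at 12 h (0.56). None of these had passed on the brightest probe set. There TNFRSF10B changed by 0.24 in knockout and 0.23 in parent DU145 cells at 6 h, and the untreated means were 7.55 and 7.56. CASP8 between the lines reversed with the housekeeping shift (-0.065). Counts of members past the test moved over 1.5 times as follows. With the mean of probe sets they were, in DU145, 2 and 5 in knockout cells at 6 h and 12 h, 4 in parent cells at 6 h and 1 between their times, and 0 for the genotype difference at 12 h. In CCRF-CEM they were 1 and 0 in knockout cells at 6 h and 12 h and 1 between times, 2 and 3 in parent cells and 1 between times, and 1 for the genotype difference at 6 h. Arrays with the same replicate number had deviations with a median correlation of -0.013 in DU145 and 0.017 in CCRF-CEM. Their highest correlation was 0.093 in DU145 and 0.159 in CCRF-CEM, and pairs with other numbers had medians of 0.0035 and -0.010. A median near 0 cannot show whether the numbers pair the samples. With the replicate block the counts were 0 for the further rise in knockout DU145 cells, 0 for the CCRF-CEM genotype difference at 12 h and 1 for untreated CCRF-CEM cells. The further rise in knockout DU145 cells also gave 0 with the housekeeping shift, cyclic loess, 36 arrays in 1 fit and an adjusted p below 0.01. Parent CCRF-CEM cells at 6 h gave 3 with 36 arrays in 1 fit, 2 with the variance trend and 2 with array weights. The 36-array fit gave 1 for the DU145 genotype difference at 6 h and 1 for knockout CCRF-CEM cells between times, and the variance trend gave 1 for the same knockout cells and 1 for untreated CCRF-CEM cells. At an adjusted p below 0.01 the counts were 1 for parent DU145 cells at 12 h, 2 for untreated DU145, 1 and 0 for the DU145 genotype difference at 6 h and 12 h, and 0 for parent CCRF-CEM cells at 6 h, knockout CCRF-CEM cells at 12 h, the CCRF-CEM genotype difference at 12 h and the difference between lines at 12 h. Leaving out 1 array, the counts ran in DU145 from 1 to 2 and from 3 to 3 in knockout cells, 0 to 1 between their times, 2 to 3 in parent cells at each time, 1 to 2 and 0 to 1 for the genotype difference and 2 to 4 untreated. In CCRF-CEM they ran from 0 to 0 and 0 to 1 in knockout cells, 0 to 2 and 1 to 2 in parent cells, 0 to 1 between parent times, 0 to 0 and 0 to 1 for the genotype difference and 0 to 1 untreated, and between lines at 12 h from 1 to 2. The housekeeping shift moved the median change of all genes by -0.519 to 0.2 and the share of higher calls by over 10 points in 13 of 21 comparisons, cyclic loess in 5. The cause of these shifts was not tested. Signals near 3.00, as for TNFRSF10D in CCRF-CEM, limit what could be seen.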
